A study of Mus musculus with 5 samples.

Results

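Interleukins are the cytokines with which leukocytes, and the tissue cells around them, signal to one another. The genes described here are those whose symbol begins with Il and a digit, that is the interleukins, their receptor chains and a few decoys, antagonists and neighbours named with them. They make up 85 of the 27998 genes of each count matrix and carry 83 symbols, since Il11ra2 is listed under 3 gene identifiers. The samples were single-cell suspensions of kidney from C57BL/6j mice with lupus induced by pristane, a hydrocarbon oil that gives mice an autoimmune disease after injection. The control group was given saline (2 mice, Saline 1 and Saline 2) and the other group received a fecal microbiota transplant, FMT, from MRL/MpJ mice (3 mice, FMT 1, FMT 2 and FMT 3), so that pristane was common to both groups and only the second received the transplant. Age, sex and the interval since treatment are not in the labels. The letter codes in the sample titles also differ between the groups, their meaning is not given, and treatment and code cannot be told apart.

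An interleukin acts on cells that carry its receptor, which is usually a pair of chains of which one is private and the other is used by several cytokines. Il2rg, the common gamma chain, serves the receptors for IL-2, IL-4, IL-7, IL-9, IL-15 and IL-21, while Il6st (gp130) serves those for IL-6 and IL-11, and Il17ra serves several IL-17 cytokines. Most of these receptors signal through JAK kinases and STAT factors, and those of the IL-1 and IL-18 family through MyD88. In the kidney, infiltrating lymphocytes and myeloid cells are known sources and targets of interleukins, and tubule epithelium is known to carry receptors such as those for IL-11, IL-15 and IL-17.

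The 5 libraries held 15333445 to 45309178 UMIs (unique molecular identifiers, each standing for 1 captured transcript) in 26237 cell barcodes. After removal of barcodes with under 200 genes or at least 50% mitochondrial UMIs and of 883 predicted doublets, 21708 cells remained, 2793 to 5993 per mouse. Pairs of libraries shared 3 to 12 barcodes. The labels name tubular epithelial cells and B cells as the material, whereas the matrices also held T cells, NK cells, monocytes, macrophages and neutrophils. Cells were assigned to 9 gates by marker UMIs: Ms4a1 for B cells (1706 cells), Cd3e with Cd4 or Cd8a for T cells (1177), Ncr1 without Cd3e for NK cells (153), Ear2 for Ear2 monocytes (476), F13a1 for F13a1 monocytes (57), C1qa for macrophages (63), S100a8 for neutrophils (381), Miox for proximal tubule cells (10782) and Slc12a3 for distal tubule cells (795). Another 463 cells passed more than 1 gate and were left out of all of them, and 5655 passed none. Marker genes not used for gating were highest, as summed counts per 1000000 UMIs (CPM), in the gate they belong to: the median over mice was 10460 CPM for B cell markers in B cells, 3336 for T cell markers in T cells, 28463 for NK markers in NK cells and 147946 for neutrophil markers in neutrophils. Exceptions to a clean separation were 1773 CPM of NK markers in T cells, 1591 of classical monocyte markers in neutrophils, 2548 of macrophage markers in Ear2 monocytes beside 2204 of their own nonclassical markers, and 2665 of thick ascending limb markers in the distal gate. Single libraries also stood out: plasma cell markers reached 22621 CPM in the Ear2 gate and 28133 CPM in the macrophage gate of FMT 2, and erythroid markers 54088 CPM in the Ear2 gate of FMT 3, against medians of 783, 159 and 110 CPM. The proximal tubule list, a guide to free RNA, had medians of 112 to 282 CPM in the immune gates against 7207 in proximal cells.

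Interleukin family transcripts were sparse. The 85 genes together gave 62617 UMIs, 0.0515% of those in the cells used. UMIs were found for 72 of them: 19 had at least 1000, 42 had at least 100, 7 had 21 to 99 and 23 had 1 to 20. The 13 without a UMI were Il3, Il9, Il20, Il24, Il25, Il31, Il17c, Il1f8, Il1f10, Il1rapl2 and the 3 Il11ra2 entries, and 0 of 21708 cells allows a share of cells with a UMI of up to 0.0138% (counting error only). Il11ra2 is a near-identical copy of Il11ra1, so the division of reads between them is uncertain. Several effector cytokines fell in the lowest class, with 16 UMIs of Il17a in 3 cells (13 of them in 1 cell), 11 of Il17f, 13 of Il21, 12 of Il23a, 11 of Il6, 11 of Il12b, 6 of Il13 and 1 each of Il5 and Il22. Il1bos, with 16 UMIs, is antisense to Il1b, and the sources used here do not say whether reads were counted by strand.

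Each level below is the CPM of a gate in 1 mouse, with the mean ± SD over 5 mice (2 saline and 3 FMT) where a single value is given. Levels are compared within a gene. The order of genes in a gate only chose which are named. Of the 42 members with at least 100 UMIs, 7 were highest in neutrophils, 7 in macrophages, 6 in T cells, 6 in B cells, 5 in distal tubule cells, 4 in NK cells, 3 in F13a1 monocytes, 2 in Ear2 monocytes and 2 in proximal tubule cells. For 16 of the 42 the lowest mouse in that gate lay above the highest mouse of the gate that came second, counting gates with at least 10 cells in a mouse. By that rule macrophages were ranked on 3 mice and F13a1 monocytes on 2, all of them FMT mice. Some macrophage places rest on very few UMIs in the gate, with 1 for Il20rb, 2 for Il1rl1 and 3 for Il18bp. In bulk sums of this kind a lower level can come from fewer positive cells or from less RNA in each, and the sums cannot separate these.

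**Figure D1:**
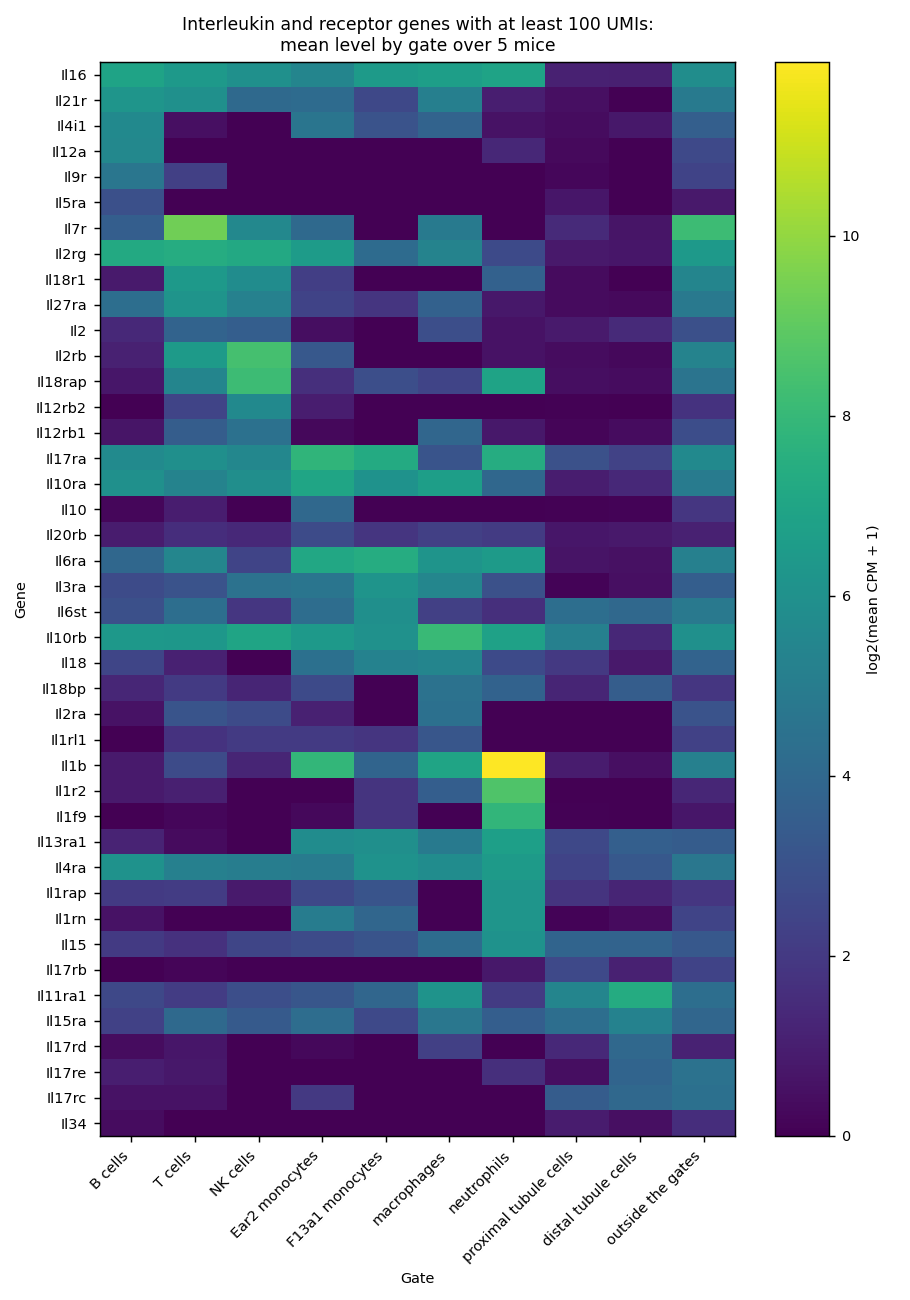
Heat map of the mean level, as log2(mean CPM + 1) over 5 mice, of the 42 genes with at least 100 UMIs (y axis) in the 9 gates and in the cells outside them (x axis). The brightest cells are Il1b in neutrophils and Il7r in T cells, and the 2 tubule columns are dark for most genes, with Il11ra1 in distal cells as the brightest.

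Neutrophils had the highest levels of several IL-1 family genes. Il1b, the inflammasome-processed cytokine IL-1 beta, was at 1676 and 2011 CPM in Saline 1 and Saline 2 and at 9325, 3316 and 3220 CPM in FMT 1, FMT 2 and FMT 3. The 3 FMT mice all lay above both saline mice, with FMT 1 far above the rest. Ear2 monocytes came second at 235 ± 113 CPM (SD, n = 5). Neutrophils contained 69.4% of all Il1b UMIs, and Il1b had at least 1 UMI in 60.3% to 97.1% of neutrophils of a mouse against 0.0397% to 1.13% of proximal tubule cells. Thinned to 500 UMIs per cell, the Il1b share in neutrophils was 53.8% and 41.2% in the saline mice and 85.3%, 72.9% and 70.2% in the FMT mice.

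Il1r2, the decoy receptor that binds IL-1 without signalling, was at 342 and 512 CPM in the neutrophils of Saline 1 and Saline 2 and at 652, 231 and 247 CPM in those of FMT 1, FMT 2 and FMT 3. These groups overlapped. Il1f9, an older name for IL-36 gamma, was at 154 and 165 CPM in the saline mice and at 290, 287 and 252 CPM in the FMT mice, with no overlap. Neutrophils held 86.0% of the Il1r2 UMIs and 89.4% of the Il1f9 UMIs, and the next gate was at 18.0 ± 16.3 CPM for Il1r2 (macrophages, SD, n = 3) and 0.178 ± 0.397 CPM for Il1f9 (Ear2 monocytes, SD, n = 5). Il1rap, the accessory chain of the IL-1 receptor, was at 74.5 ± 35.5 CPM in neutrophils (SD, n = 5), and Il1rn, the receptor antagonist, at 73.4 ± 29.9 CPM. Both Il1r2 and Il1rap were seen in 47 of 381 neutrophils (12.3%).

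Since Il1b, Il1f9 and Il1r2 all had their highest level in neutrophils, the 300 bases around their RefSeq start sites (250 before and 50 after, build GRCm38.p6) are shown. Capitals mark matches, on either strand, to 4 motifs: TGANTCA (AP-1), TTCNNNGAA (GAS, the STAT element), GGGAN followed directly by TTNCC (NF-kB) and TTGCNNAA (C/EBP). The Il1b window is chr2:129371090-129371389 on the minus strand, the Il1f9 window chr2:24186226-24186525 on the plus strand and the Il1r2 window chr1:40085843-40086142 on the plus strand. GENCODE starts the Il1r2 gene upstream, at 40074079, so this window lies inside the gene by that annotation and the upstream start is not shown.
Il1b: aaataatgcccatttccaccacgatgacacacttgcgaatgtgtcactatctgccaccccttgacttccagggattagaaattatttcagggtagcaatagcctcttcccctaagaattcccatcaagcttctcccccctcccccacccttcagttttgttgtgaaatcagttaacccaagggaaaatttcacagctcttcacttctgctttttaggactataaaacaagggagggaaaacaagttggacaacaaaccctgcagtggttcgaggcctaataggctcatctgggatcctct
Il1f9: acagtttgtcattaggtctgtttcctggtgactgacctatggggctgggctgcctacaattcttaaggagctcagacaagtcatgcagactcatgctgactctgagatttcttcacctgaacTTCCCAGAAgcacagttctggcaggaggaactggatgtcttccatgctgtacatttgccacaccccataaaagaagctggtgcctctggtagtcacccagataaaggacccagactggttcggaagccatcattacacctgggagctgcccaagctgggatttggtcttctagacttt
Il1r2: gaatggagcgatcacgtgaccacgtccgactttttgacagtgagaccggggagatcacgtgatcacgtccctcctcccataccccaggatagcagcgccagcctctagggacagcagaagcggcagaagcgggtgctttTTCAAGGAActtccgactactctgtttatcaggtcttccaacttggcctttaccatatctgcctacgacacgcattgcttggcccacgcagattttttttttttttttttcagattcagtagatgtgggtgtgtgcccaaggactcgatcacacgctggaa

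Each of the Il1f9 and Il1r2 windows held 1 GAS match, starting at base 123 and base 140, and no match overlapped another motif. The Il1b window held none of the 4 motifs, which says only that these letters are not in this window. Windows not shown were also scanned, for Il13ra1, likewise highest in neutrophils, and for both start sites of Il12a, highest in B cells. None of them held a match to any of the motifs. Il15, Il1rap and Il1rn, also highest in neutrophils, were not scanned. Of 32851 RefSeq promoter windows of the same length, 8.3% held a GAS match, 7.81% an AP-1, 1.2% an NF-kB and 10.8% a C/EBP match. A match is a description of the sequence and not a bound site.

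On chromosome 1 (mm10, GENCODE) Il1r2 (40074079 to 40125231), Il1r1 (40225080 to 40317257), Il1rl2 (40324610 to 40367562), Il1rl1 (40429570 to 40465415), Il18r1 (40465552 to 40500854) and Il18rap (40515362 to 40551705) lie side by side on the plus strand. Neighbours in this cluster were highest in different cells: Il1r2 in neutrophils, Il18r1 in T cells at 87.5 ± 24.9 CPM (SD, n = 5) and Il18rap in NK cells at 293 ± 58.3 CPM. Il18rap, the accessory chain of the IL-18 receptor, was at 377 and 243 CPM in the NK cells of Saline 1 and Saline 2 and at 331, 258 and 256 CPM in those of FMT 1, FMT 2 and FMT 3, so the groups overlapped, and neutrophils came second at 122 ± 18.0 CPM. Il18r1 is the ligand-binding chain, and both chains were seen in 21 of 153 NK cells (13.7%) and in 82 of 1177 T cells (6.97%).

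T cells were marked by Il7r, the receptor chain for the survival factor IL-7, at 790 and 638 CPM in the saline mice and 568, 602 and 701 CPM in the FMT mice. The groups overlapped. Il7r was found in 56.5% to 70% of T cells and, thinned to 1000 UMIs, in 30.4% to 47.0%, against 0.135% to 1.17% of proximal tubule cells unthinned. It gave no UMI in 381 neutrophils, which allows a share of up to 0.787%. T cells in the gate held 40.3% of all Il7r UMIs and cells outside the gates 55.7%. Among those outside, 719 cells with Cd3e but neither Cd4 nor Cd8a UMIs had 665 CPM of Il7r, close to the gated T cells.

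The gamma chain Il2rg was at 164 ± 29.5 CPM in T cells, 150 ± 31.3 in B cells and 146 ± 34.6 in NK cells (SD, n = 5 each), and these 3 gates overlapped. Its partner Il2rb, the beta chain for IL-2 and IL-15, was at 339 ± 62.1 CPM in NK cells and 90.3 ± 12.97 CPM in T cells, without overlap between the gates. By mouse Il2rb was at 251, 409, 303, 371 and 361 CPM in NK cells of Saline 1, Saline 2, FMT 1, FMT 2 and FMT 3, and 65.2% to 74.2% of NK cells had a UMI. Il2rb and Il2rg were seen together in 54 of 153 NK cells (35.3%) and 16.9% of T cells, and Il7r with Il2rg in 417 of 1177 T cells (35.4%). Il12rb2, the signalling chain for IL-12, was at 49.7 ± 24.4 CPM in NK cells. Il2, the T cell growth factor, was in T cells at 25.4 and 11.9 CPM in the saline mice and 10.9, 7.88 and 8.19 CPM in the FMT mice.

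B cells carried Il2rg, Il16 at 122 ± 15.8 CPM, Il10rb at 81.1 ± 9.52, Il21r at 73.6 ± 18.1 and Il4ra at 66.8 ± 13.6 CPM (SD, n = 5). Il21r and Il4ra bind the T cell cytokines IL-21 and IL-4 that drive B cell differentiation. Another 3 members were highest in B cells in all 5 mice without overlap with any other gate: Il12a, the p35 chain shared by IL-12 and IL-35, at 38.9 and 46.9 CPM in the saline mice and 47.9, 40.1 and 61.6 CPM in the FMT mice, Il9r at 24.7 ± 3.72 CPM and Il5ra at 6.50 ± 0.643 CPM. B cells held 62.9% of the Il12a UMIs, with a UMI in 10.2% to 16.1% of B cells against 0.0583% to 0.306% of proximal tubule cells, and 0 of 1177 T cells had one, which allows up to 0.255%. Il12b, which pairs with Il12a to make IL-12, had no UMI in 1706 B cells (up to 0.176%). Plasma cell markers summed to a median of 4819 CPM in the B cell gate, and their part in these levels was not tested. Il4i1 is named with the interleukins but encodes an amino acid oxidase, and its level in B cells was 49.8 ± 15.8 CPM.

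Monocytes carried receptor chains for IL-6, IL-10 and IL-17. Both chains of the IL-10 receptor were seen together in 12.7% of macrophages, 12.3% of F13a1 monocytes, 10.9% of Ear2 monocytes and 10.5% of NK cells. The next gate was T cells at 5.95%. In Ear2 monocytes Il17ra was at 226 ± 47.4 CPM, Il6ra at 143 ± 27.7 and Il10ra at 129 ± 36.2 (SD, n = 5). In F13a1 monocytes, of which a mouse had only 8 to 18 cells, Il6ra was at 166 ± 66.5, Il17ra at 155 ± 51.4, Il16 at 89.9 ± 53.8, Il3ra at 72.2 ± 41.0 and Il4ra at 67.7 ± 31.5 CPM. In macrophages, 8 to 20 cells per mouse, Il10rb was at 120 and 282 CPM in the saline mice and 381, 228 and 335 in the FMT mice, Il1b at 124 ± 118, Il10ra at 103 ± 80.1, Il16 at 103 ± 60.1 and Il6ra at 72.5 ± 49.7 CPM. Il17ra and Il6st were each seen in 1 of 63 macrophages. The SD in these 2 small gates was a large part of the level, and Il1b in macrophages ranged from 0 to 318 CPM. Il10, the ligand of Il10ra and Il10rb, was highest in Ear2 monocytes, at 42.6 and 9.15 CPM in the saline mice and 14.6, 9.68 and 0 CPM in the FMT mice. These levels come from 56 UMIs in the gate, and Saline 1 had 300 of its 476 cells. The values of the other mice rest on very few UMIs. Of all 135 Il10 UMIs, 98 were from Saline 1. The next gate for Il10 was T cells at 0.953 CPM.

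At a mean of 10 CPM or more there were 6 members in proximal cells and 9 in distal cells, against 13 to 21 in the 7 immune gates. Gate size enters these counts, since 1 UMI makes a high CPM in a small gate. Macrophages, with 21 members, held 171618 UMIs in all and proximal cells 79220352. Distal cells and B cells were of like size, at 5227104 and 5384038 UMIs, and had 9 and 13 members. In the tubule gates only 1 member, in distal cells, reached a mean of 100 CPM. Il11ra1, the ligand-binding chain for IL-11, was the exception at 156 and 155 CPM in distal cells of the saline mice and 164, 181 and 151 CPM in those of the FMT mice. Proximal cells had 42.3 ± 4.76 CPM of Il11ra1 (SD, n = 5), and 49.0% to 59.1% of distal cells had a UMI against 0.671% to 2.63% of B cells. Its signalling partner Il6st was at 18.6 ± 1.62 CPM in proximal and 15.1 ± 4.72 in distal cells, and both chains were seen in 5.79% of distal and 4.24% of proximal cells. Il15ra was at 37.8 ± 8.97 CPM in distal and 18.7 ± 1.22 in proximal cells, with its ligand Il15 at 13.3 ± 2.70 CPM in proximal cells. The tubule gates differed in Il10rb, a chain shared by receptors for IL-10, IL-22 and type III interferons. It was at 36.0 ± 4.69 CPM in proximal cells (2385 of 10782 cells with a UMI) and 1.54 ± 1.19 CPM in distal cells (7 of 795), without overlap between mice, and this pair was picked after the values were seen and was not tested. The IL-17 receptor chains Il17rc and Il17rd were at 15.3 ± 5.07 and 15.3 ± 2.62 CPM in distal cells, and Il17rb, the chain for IL-25, had 82.3% of its UMIs in proximal cells at 5.13 ± 1.49 CPM.

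Of Il17re, the receptor chain for IL-17C, 75.5% of the UMIs lay outside the 9 gates. In 131 ungated cells with Upk1a, a uroplakin of the urothelium, Il17re was at 144 CPM (109 to 234 by mouse) with a UMI in 69.5% of cells, and Il17rc, its relative, at 121 CPM (81.5 to 138). Those 131 cells held 55.2% of all Il17re UMIs, while Il17c itself gave no UMI in any cell. In 47 cells with the endothelial gene Emcn, the alarmin Il33 was at 138 CPM (0 to 212 by mouse). In 11 cells with the basophil protease Mcpt8, Il4 was at 261 CPM from 7 UMIs in 5 cells. Of all 94 Il4 UMIs, only 7.45% lay in cells with Mcpt8, and 39 lay in 27 cells with Cd3e. These groups of ungated cells were chosen after levels had been seen and are described without a test.

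**Figure D2:**
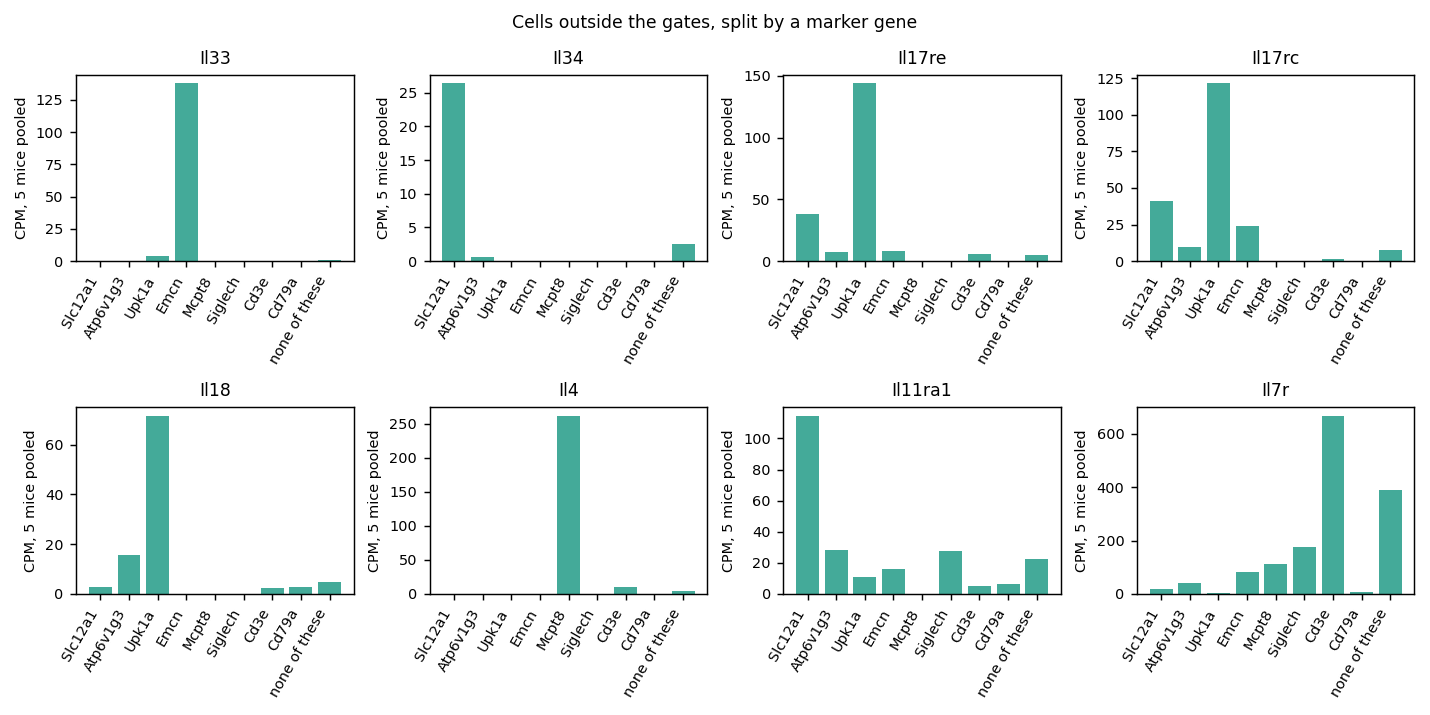
Levels of 8 genes, 1 per panel, in cells outside the gates split by a marker gene (x axis), in CPM with the 5 mice pooled and so without an error bar (y axis). Il17re and Il17rc are highest in the 131 cells with Upk1a, Il33 in the 47 cells with Emcn, Il4 in the 11 cells with Mcpt8 and Il7r in the 719 cells with Cd3e.

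Differences between lineages were tested with edgeR's quasi-likelihood test on UMI sums per mouse and gate with the mouse as a block, a call being a Benjamini-Hochberg adjusted p under 0.05 over all genes tested. F13a1 monocytes and macrophages entered with FMT mice only, since no saline mouse had 10 such cells. Between the immune and the tubule gates 14 of 33 members tested were called, 10 higher in immune and 4 higher in tubule gates. Of all 9837 genes 67.8% were called, a larger share than of the members. However, some uncalled members had no UMI in a whole gate and a standard error too large for a call, such as 13215 for Il1r2 and 307 for Il7r. Their lack of a call is no finding of equal levels, and the lower share is not read as a trait of the members. The median member difference was 2.69 (log2, immune minus tubule) beside -0.43 for all genes. That median is the estimate of Il27, whose standard error was 10020. Il6ra was higher in the immune gates by 6.27 ± 0.57 (log2 ± SE, adjusted p = 2.0e-14), Il16 by 6.03 ± 0.27 (5.5e-27), Il2rg by 5.85 ± 0.56 (1.1e-13) and Il10ra by 5.73 ± 0.28 (4.7e-25). Those higher in tubule cells were Il11ra1 at -3.63 ± 0.16 (adjusted p = 2.4e-27), Il15 at -1.95 ± 0.49 (0.00044), Il15ra at -1.20 ± 0.22 (3.1e-06) and Il6st at -1.14 ± 0.31 (0.00094). The contrast averages log levels over gates, and a single immune gate can lie above the tubule: Il15 was at 66.7 ± 41.0 CPM in neutrophils (SD, n = 5), above its level in proximal cells. Il6st was at 22.4 and 164 CPM in the 2 FMT mice with at least 10 F13a1 monocytes. In T cells it was at 19.0 ± 3.96 CPM (SD, n = 5), close to its proximal level given above. With UMIs summed over the gates of an arm, a setting added after seeing the data, 30 of 32 members were called, 25 higher in immune and 5 in tubule cells, beside 80.6% of all genes.

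Between myeloid and lymphoid gates 12 of 33 members were called, 6 higher in each, beside 39.2% of all genes, so the share of members called was close to the background. Here too a member with no UMI in a whole gate could lack a usable standard error, as Il1r2 did (15076). The myeloid side was led by Il13ra1, a receptor chain for IL-13 and IL-4, at 7.16 ± 0.86 (log2 ± SE, edgeR adjusted p = 1.6e-09), Il1b at 6.34 ± 1.75 (0.0027), Il18 at 4.66 ± 0.74 (1.1e-06) and Il6ra at 2.68 ± 0.34 (5.6e-09). The lymphoid side was led by Il2rb at -6.38 ± 1.05 (adjusted p = 2.1e-06), Il7r at -6.05 ± 0.89 (2.3e-07), Il27ra, the IL-27 receptor, at -4.60 ± 0.57 (2.7e-09) and Il18r1 at -4.56 ± 1.45 (0.010). The sizes of Il7r, Il2rb, Il18r1, Il13ra1 and Il18 lean on gates with no UMI and then depend on the small count that edgeR adds. Summed over the arms, 25 of 32 members were called beside 48% of all genes. In these sums Il7r stood at -5.36 ± 0.50, Il2rb at -4.04 ± 0.41 and Il18r1 at -2.73 ± 0.39. Il13ra1 stood at 6.85 ± 0.37 and Il18 at 3.03 ± 0.40. The calls of Il1b and Il18r1 were lost in some settings: without FMT 2 Il1b stood at 6.12 with an adjusted p of 1.0, and without FMT 1 Il18r1 stood at -4.25 with an adjusted p of 0.079 (edgeR).

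The comparison of FMT with saline asked which interleukin genes differed with the transplant inside each cell type. In 7 gates with at least 10 cells in enough mice, 91 tests of 38 members were made with edgeR, and 0 were called (0 by DESeq2 as well). Of the 91, 11 had an unadjusted p under 0.05, a larger share than the 7.16% of all 44565 gene tests. The tests share the same 5 mice, and this excess was not tested. In 23 of the 91 the values of the 2 groups did not overlap, 11 with FMT higher and 12 with FMT lower. This was beside 22.8% of all gene tests, so by this measure the members lay near the background. An exact permutation test of 2 mice against 3 cannot go below p = 0.1, and the labels do not say whether mice shared a cage or a processing day, so each p-value reflects only how far these 5 mice spread. F13a1 monocytes and macrophages had no saline mouse with 10 cells and gave no test. With cells kept in each gate they pass, 4 members could be tested in F13a1 monocytes and 1 in macrophages, and 0 were called by edgeR, with 0 at an unadjusted p under 0.05.

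In neutrophils 0 of 13 members tested were called, beside 0.573% of 2791 genes. The groups did not overlap for 5 members, all higher with FMT, beside 29.6% of all genes in either direction and 17.7% with FMT higher. Il1b was at 1843 ± 237 CPM in saline (SD, n = 2) and 5287 ± 3497 in FMT mice (n = 3), a difference of 1.32 ± 0.41 (log2 FMT minus saline ± SE, edgeR adjusted p = 0.18). Il13ra1 was at 65.0 and 70.2 CPM in the saline mice and 155, 119 and 122 in the FMT mice, 0.82 ± 0.27 (adjusted p = 0.21). Il1f9, at the levels given above, differed by 0.66 ± 0.23 (0.26), Il17ra by 0.48 ± 0.28 (0.53) and Il4ra by 0.37 ± 0.31 (0.66). The median member difference was 0.37 beside -0.02 for all neutrophil genes, but it was 0.06 without Saline 1, 0.18 without FMT 1 and 0.03 without FMT 3.

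FMT 1 stood apart among the neutrophil libraries. Its 34 neutrophils had 10.3 CPM of Camp, a granule gene of immature neutrophils, and 176 CPM of Ngp. Camp was at 30093 and 19124 CPM in the saline mice and at 16003 and 14986 in FMT 2 and FMT 3. Ngp was at 20498 and 16840 CPM in the saline mice and at 12863 and 12330 in FMT 2 and FMT 3. For both genes all FMT mice thus lay below both saline mice, so the make-up differed by group and not only in FMT 1. For Ltf, also a granule gene, the groups overlapped. Csf3r, a neutrophil marker, was at 850 and 1046 CPM in the saline mice and at 1946, 1458 and 1271 in the FMT mice. Cxcr2, a gene of mature neutrophils, was at 496 and 597 CPM in the saline mice and 900, 813 and 628 CPM in the FMT mice. The part of this make-up in the Il1b values was not tested. Without FMT 1 the Il1b difference was 0.79 (edgeR adjusted p = 0.24; 0.79 to 1.59 and 0.027 to 0.49 over 16 alternatives), 0 of 13 members were called, 9 were higher and 4 lower with FMT, and the groups did not overlap for 5 higher and 3 lower members, beside 40.9% of all genes in either direction.

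**Figure D3:**
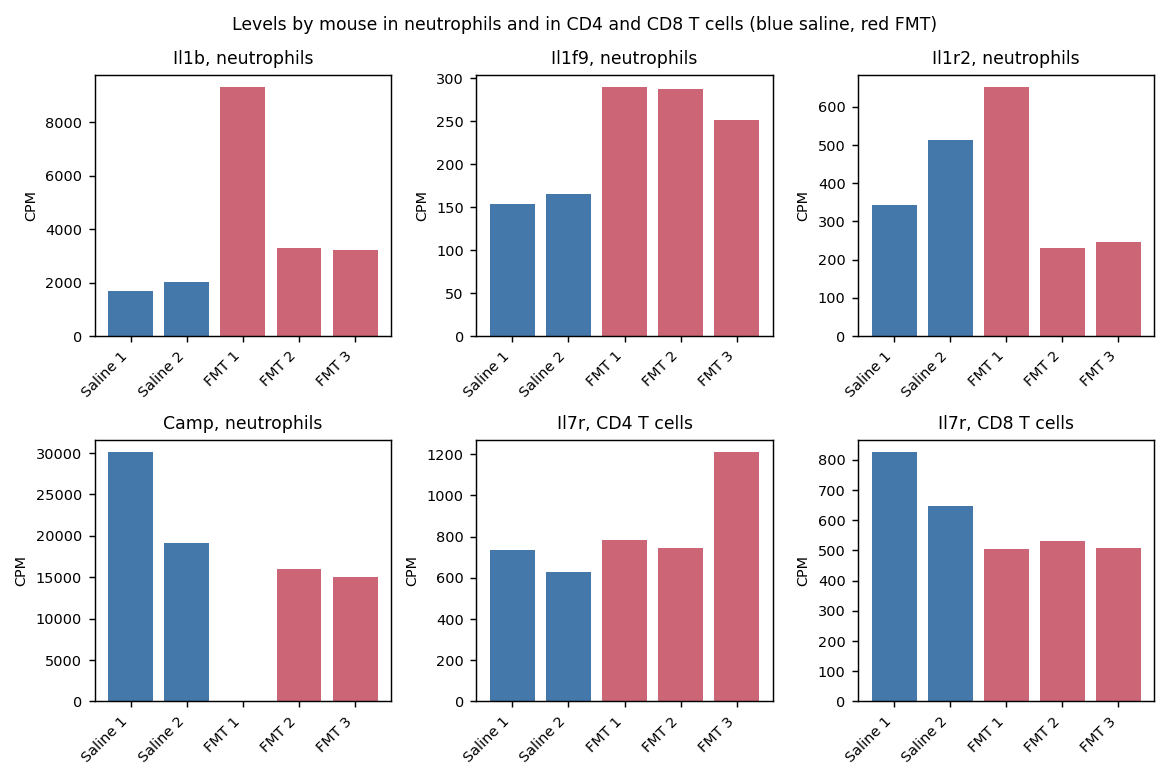
Each bar is the level in 1 mouse in CPM (y axis, from 0), blue for saline and red for FMT, for Il1b, Il1f9, Il1r2 and the granule gene Camp in neutrophils and for Il7r in CD4 and in CD8 T cells. FMT 1 has the highest Il1b and Il1r2 bars and almost no Camp (10.3 CPM), and the Il7r bars of the FMT mice lie above those of the saline mice in CD4 cells and below them in CD8 cells.

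In T cells 0 of 19 members were called (0% of 8029 genes). Nonoverlapping groups were found for 5 members, all lower with FMT, beside 21.9% of all genes in either direction and 14.6% with FMT lower. Il18r1 was at 119 and 106 CPM in the saline mice and 84.4, 71.6 and 57.3 in the FMT mice, a difference of -0.54 ± 0.20 (log2 ± SE, edgeR adjusted p = 0.86). Il10ra was at 56.2 and 41.2 CPM against 36.0, 26.3 and 35.5, -0.53 ± 0.25 (0.88), and the difference was -0.32 without Saline 1. With doubled gate minimums its groups overlapped. The others were Il2 at -0.88 ± 0.40 (0.86), Il15ra at -0.54 ± 0.32 (0.90) and Il2rb at -0.23 ± 0.19 (0.92).

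The T cell gate differed in make-up, since cells with Cd4 and no Cd8a UMI were 43.5% and 44.6% of it in the saline mice and 25.6%, 36.8% and 31.5% in the FMT mice. The gate was therefore split into CD4 and CD8 T cells, an analysis chosen after seeing the data. Levels between the subsets were called for 3 of 16 members, beside 7.03% of 6158 genes: Il18r1 was higher in CD4 cells by 1.25 ± 0.16 (log2 ± SE, edgeR adjusted p = 3.9e-05), and Il10ra and Il10rb higher in CD8 cells, at -1.03 ± 0.26 (0.015) and -0.58 ± 0.15 (0.024). By mouse Il18r1 was at 189, 181, 183, 114 and 58.1 CPM in CD4 cells and at 72.3, 51.0, 54.2, 46.2 and 57.7 in CD8 cells of Saline 1, Saline 2, FMT 1, FMT 2 and FMT 3. FMT 3, with 29 CD4 cells, was the mouse in which both subsets had nearly the same level. Within the subsets the FMT difference of Il18r1 was -0.38 ± 0.30 in CD4 and -0.27 ± 0.25 in CD8 cells.

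The FMT difference of Il7r had opposite signs in the 2 subsets. It was at 736 and 629 CPM in the CD4 cells of the saline mice and 783, 746 and 1210 in those of the FMT mice, and at 825 and 648 CPM in the CD8 cells of the saline mice and 505, 530 and 508 in those of the FMT mice. In both subsets the groups did not overlap. The FMT difference was 0.50 ± 0.23 in CD4 cells (log2 ± SE, edgeR adjusted p = 0.71, with 0 of 15 members and 0.151% of genes called) and -0.54 ± 0.19 in CD8 cells (adjusted p = 0.94, with 0 of 15 members and 0% of genes called). The test of the difference between these 2 effects gave 0.99 ± 0.20 (adjusted p = 0.025), 1 of 16 members being called beside 0.422% of genes. This call was lost without Saline 1 (0.92, adjusted p = 0.47), without Saline 2 (1.05, 0.27), without FMT 3 (0.81, 0.15) and with no TMM scaling (0.85, 0.074). Il6ra also had FMT differences of opposite sign, without a call, and its groups overlapped in CD8 cells: 29.2 and 37.7 CPM against 65.6, 66.1 and 106 in CD4 cells, 67.0 and 34.4 CPM against 36.6, 29.5 and 23.1 in CD8 cells, and a difference of effects of 1.79 ± 0.46 (adjusted p = 0.095). The naive T cell gene Lef1 was at 156 and 159 CPM in the whole T cell gate of the saline mice and at 215, 216 and 257 in the FMT mice, and its part in these values was not tested.

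In B cells 0 of 13 members were called (0% of 8027 genes), and the groups did not overlap for 2, beside 21.2% of all genes. Il21r was at 46.1 and 70.8 CPM in the saline mice and 74.2, 96.0 and 80.8 in the FMT mice, 0.52 ± 0.23 (log2 ± SE, edgeR adjusted p = 0.83). This difference was 0.22 without Saline 1 and 0.90 without Saline 2, and the groups overlapped with lower and with doubled gate minimums. Il17ra was at 69.1 and 61.0 CPM against 44.7, 44.8 and 38.3, -0.59 ± 0.19 (0.67). Il12a, highest in B cells, had overlapping groups.

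In Ear2 monocytes 0 of 9 members were called (0% of 3263 genes), and the groups did not overlap for 2, beside 17.8% of all genes. Il10ra was at 123 and 73.2 CPM in the saline mice and 128, 150 and 170 in the FMT mice, 0.40 ± 0.29 (log2 ± SE, edgeR adjusted p = 0.98). It was 0.81 without Saline 1, 0.18 without Saline 2 and 0.09 with cells kept in each gate they pass, and the groups overlapped with lower gate minimums. Il4i1 was at 51.5 and 45.8 CPM against 21.9, 0 and 0, -2.21 ± 0.80 (0.72), from 14 to 66 cells in an FMT mouse. The part of the plasma cell and erythroid markers of FMT 2 and FMT 3 in the Ear2 values was not tested. In NK cells 0 of 7 members were called (0.0422% of 2367 genes), and the groups did not overlap for 1, beside 21.2% of all genes: Il10rb at 106 and 106 CPM against 133, 132 and 151, 0.30 ± 0.32 (0.97).

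In proximal tubule cells 0 of 21 members were called, beside 0.0674% of 11862 genes, and the groups did not overlap for 3 higher and 5 lower members, beside 28.1% of all genes, 12.8% with FMT higher and 15.3% with FMT lower. Il15, a ligand of receptors with Il2rb, was at 11.4 and 9.61 CPM in the saline mice and 16.02, 14.7 and 14.9 in the FMT mice, 0.54 ± 0.16 (log2 ± SE, edgeR adjusted p = 0.36). Il10rb was at 31.0 and 33.9 CPM against 43.5, 34.7 and 36.8, 0.26 ± 0.15 (0.55), and Il15ra differed by 0.15 ± 0.13 (0.69). The Il10rb groups overlapped with lower gate minimums and with a mitochondrial limit of 25%. Il17rb was at 6.89 and 6.07 CPM against 5.5, 3.55 and 3.63, -0.58 ± 0.25 (0.47), and Il6st differed by -0.13 ± 0.14 (0.75). The other 3 lower members are leukocyte genes near 1 CPM in these cells, Il1b at -1.92 ± 0.71 (0.40), Il10ra at -1.26 ± 0.58 (0.49) and Il2rg at -0.52 ± 0.53 (0.74). In distal tubule cells 0 of 9 members were called (0.219% of 8226 genes) and the groups overlapped for all 9, beside 17.5% of all genes without overlap.

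**Figure D4:**
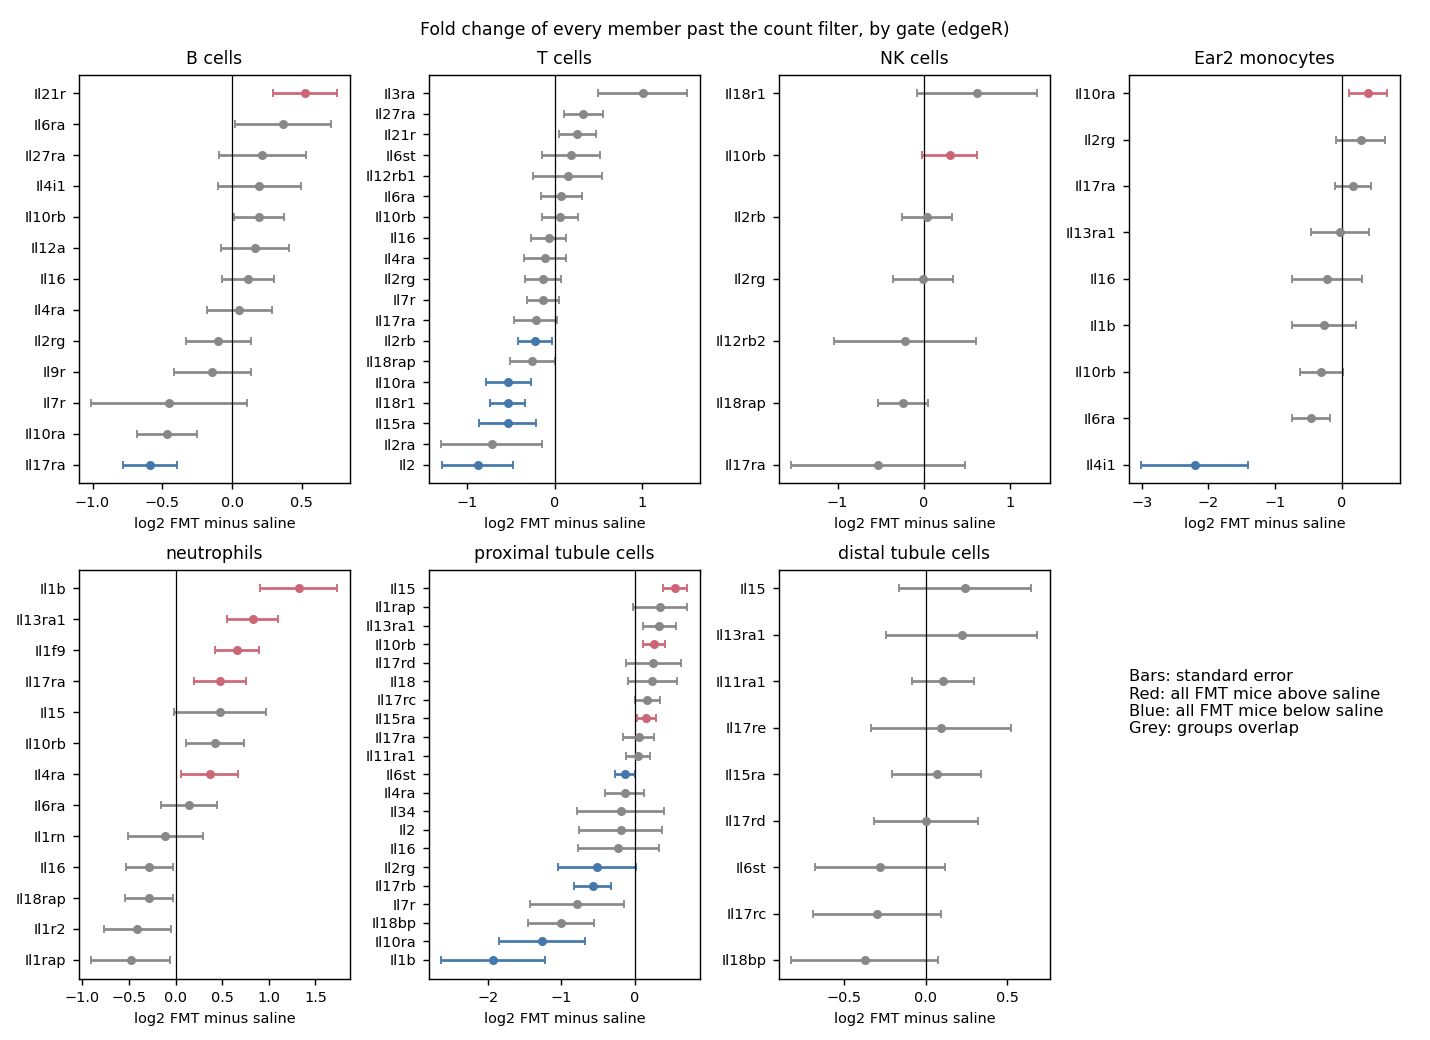
Each point is the difference between FMT and saline of 1 gene in 1 gate (x axis, log2 from edgeR, bars are the standard error), for each of the 91 tests. Red and blue mark the 11 genes whose FMT mice all lay above and the 12 whose FMT mice all lay below the saline mice, and grey marks overlapping groups. None was called.

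The FMT effects in myeloid and lymphoid gates were compared directly in 1 model over the gates that both groups filled. Of 21 members tested 0 were called (0% of 5726 genes), with 1 at an unadjusted p under 0.05. That was Il17ra, whose FMT effect was 0.73 ± 0.33 higher in myeloid gates (log2 ± SE, edgeR adjusted p = 0.49).

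**Figure D5:**
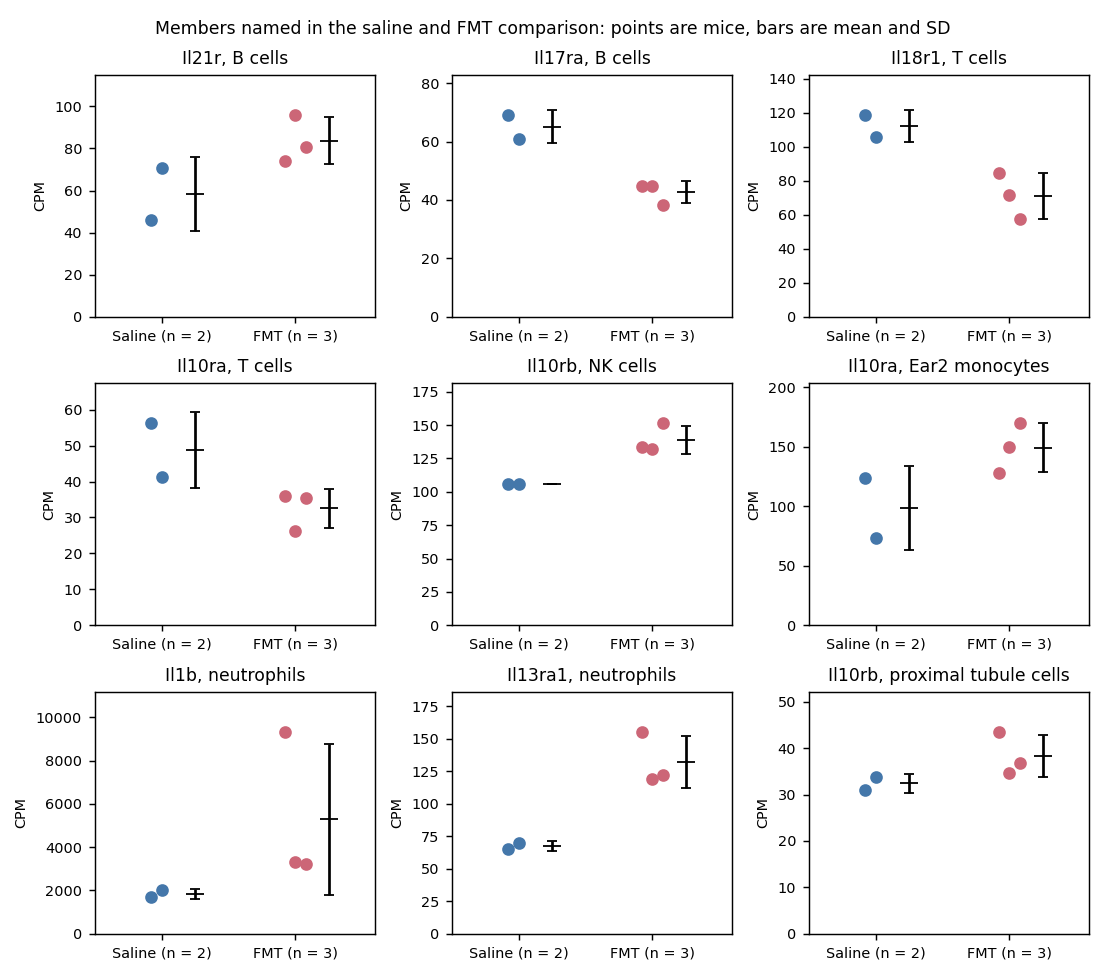
Levels by mouse in CPM (y axis, from 0) for the 9 combinations of gene and gate whose groups did not overlap and whose mean reached 30 CPM, taken by size of difference, up to 2 in each direction per gate. Points are mice, blue for saline (n = 2) and red for FMT (n = 3), and the bars are the mean and SD. Il1b in neutrophils has the widest spread, from FMT 1 at 9325 CPM.

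The signalling genes behind the receptors were followed in a list of 55 that do not carry the Il symbol, among them JAK kinases, STAT factors, SOCS inhibitors, MyD88 and IRAK adaptors and inflammasome genes. With the settings used throughout, none was called by edgeR in any gate (38 tested in B cells, 40 in T cells, 15 in NK cells, 27 in Ear2 monocytes, 25 in neutrophils, 41 in proximal and 29 in distal tubule cells). In 10 of the alternative fits 1 or 2 of them were called, 6 of these fits being in neutrophils. In neutrophils 21 of the 25 were higher with FMT and 4 lower, with a median of 0.44 beside -0.02 for all genes. In proximal tubule cells 12 were higher and 29 lower with a median of -0.14, and in T cells 12 higher and 28 lower with a median of -0.10, both beside -0.01 for all genes. The T cell counts leaned on single mice, with 19 higher and 21 lower (median -0.03) without FMT 1, and the proximal counts were 19 and 24 (median -0.08) without Saline 2. B cells had 21 higher and 17 lower, NK cells 9 and 6, Ear2 monocytes 19 and 8 (median 0.18), and distal cells 15 and 14. With cells kept in each gate they pass, the Ear2 counts were 16 higher and 18 lower (median -0.04).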

How the data were processed

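The deposited counts are UMI counts per gene and cell barcode, 1 matrix per mouse with its gene and barcode lists. Reads were processed with Cell Ranger on mm10, version 2.1.1 per the submitters' processing notes but 4.0.0 per the file headers. Per the labels' protocols RNA was prepared with bulk kits (RNeasy, SMARTER), which does not match the 10x description, and the sources used here do not give the strand setting. Cells had 200 genes or more and less than 50% of their UMIs from mitochondrial genes, and doublets were removed with Scrublet (scanpy 1.11.5). A gate needed 1 UMI of Ms4a1, Cd3e, Cd4 or Cd8a, or Ncr1, 2 of Ear2, F13a1 or C1qa, 10 of S100a8, 5 of Miox or 3 of Slc12a3.

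UMIs were summed per mouse and gate, for mice with at least 10 cells, and tested with edgeR 4.0.16 (TMM scaling, filterByExpr, quasi-likelihood F test, Benjamini-Hochberg over all genes passing the filter, threshold 0.05). The tests were also run on counts simulated from the model that they assume. Recovery of added changes is not reported here, and such a run cannot say how well that model holds for these mice. Genes were named by rule: called members, up to 2 nonoverlapping members per gate and direction with a mean of at least 30 CPM, the top 5 levels per gate and the top 4 per lineage contrast and direction. Other nonoverlapping members and the ungated groups were chosen after their values were seen. Intervals and limits are exact binomial at 95% or 3 counts, for counting error only. DESeq2 1.42.0, other scalings, no filter, other gates, a replicate block and leaving out each mouse were alternatives. The members and lists were chosen with earlier results of these data known. Positions are from GENCODE M21 (85 of 85 members matched) and promoters from RefSeq.

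Replicate numbers are shared by only 2 pairs of mice and nothing says that they pair animals. Depth was 3262 to 4928 UMIs per cell (medians by mouse).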

Additional observations from a re-analysis of the deposited data

Results flagged for a closer look

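In 5 pairs of gates a member had all FMT mice above saline in one gate and all below in the other. The differences between the 2 FMT effects (log2) were 0.92 for Il10ra in Ear2 monocytes against T cells, 1.66 for Il10ra in Ear2 monocytes against proximal tubule cells, 0.69 for Il15ra in proximal tubule cells against T cells, 1.07 for Il17ra in neutrophils against B cells and 3.25 for Il1b in neutrophils against proximal tubule cells. None of these 5 differences was tested for its own pair. Il1b and Il10ra are near 1 CPM in proximal tubule cells, at 2.22, 0.910, 0.566, 0.0592 and 0.641 CPM of Il1b in Saline 1, Saline 2, FMT 1, FMT 2 and FMT 3.

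The FMT effect on Il7r differed between CD4 and CD8 T cells by 0.99 (log2, edgeR adjusted p = 0.025), as described above, and the call was lost when Saline 1, Saline 2 or FMT 3 was left out.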

How the results depend on the processing

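Members called for FMT against saline stayed at 0 in the 7 gates under each alternative except 4 fits. Without a low count filter there was 1 member called in T cells (Il1b, -3.18, edgeR adjusted p = 0.00038), 1 in Ear2 monocytes (Il7r, 3.52, 0.023) and 1 in neutrophils (Il1b, 1.24, 0.027). Leaving out a mouse gave 0 to 1 in T cells, the 1 being Il1b without Saline 1 (-3.92, 0.017), where 26 of the 28 Il1b UMIs in the T cells of Saline 2 lay in 1 cell. With a replicate block 0 members were called in each gate. Over all alternatives the number of genes called ranged from 0 to 135 in B cells, 0 to 78 in T cells, 0 to 15 in NK cells, 0 to 62 in Ear2 monocytes, 13 to 141 in neutrophils (16 as reported), 0 to 148 in proximal (8) and 0 to 94 in distal tubule cells (18). With arms as sums, members called went from 14 to 30 for immune against tubule and from 12 to 25 for myeloid against lymphoid. Il1b, myeloid against lymphoid, lost its call with lower (5.12) and doubled gate minimums (5.02), and Il18r1 with doubled minimums (-4.27, adjusted p = 0.061). Thinning cells to 500 in place of 1000 UMIs lowered the thinned share of cells with a UMI, averaged over mice, from 37.9% to 22.0% for Il7r in T cells, 4.70% to 2.66% for Il12a in B cells, 23.6% to 12.4% for Il17ra in Ear2 monocytes and 13.9% to 7.39% for Il11ra1 in distal cells, by construction. The Il7r difference between CD4 and CD8 cells was 0.85 with no TMM (adjusted p = 0.074) and 0.81 to 1.12 with a mouse left out (adjusted p 0.00015 to 0.47). Of the 9 FMT differences drawn by mouse and the named lineage differences, no alternative reversed a direction, and the other FMT differences in the text were not followed through the alternatives. Depth limits the 30 members with 1 to 99 UMIs, and the cell number limits F13a1 monocytes and macrophages, which gave a test only with cells kept in each gate they pass.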
